A study of Mus musculus with 6 samples.

Results

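The extracellular metalloproteinases of the embryonic kidney and their inhibitors were described here by 9 genes: the matrix metalloproteinases Mmp2, Mmp9, Mmp11 and Mmp14, the thrombospondin-repeat proteases Adamts1 and Adamts18, and the tissue inhibitors Timp1, Timp2 and Timp3. They were found by name, as every probe set of the array whose annotation gives exactly 1 symbol and that symbol is one of these genes. This gave 23 of 45101 probe sets, for 9 of the 18193 genes named by the annotation in this way. The arrays were Affymetrix oligonucleotide arrays, 3 of Hoxb7-Cre beta-catenin conditional knockout kidneys and 3 of normal kidneys, all whole kidneys of mouse embryos at embryonic day 12.5. In the knockout, the beta-catenin gene (Ctnnb1) carries loxP sites around exons 2 to 6 and meets a Cre and Gfp transgene under the Hoxb7 promoter. That promoter works in the ureteric bud, the branching epithelium from which the collecting ducts form. The mesenchyme, stroma and vessels around the bud are outside the reach of that promoter and remain in the sample. The labels give the second group as normal and state neither its genotype at these loci nor the strain, sex or number of embryos per vial. Kidneys were assigned to their vials by chance, so a p-value here measures the spread between vials and arrays, which may in part be technical. The titles and source names of the knockout samples say knockout while their description field says normal; every direction below follows the titles.

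Matrix metalloproteinases are zinc-dependent enzymes that cut collagens, laminins, fibronectin and growth factor carriers outside the cell. They are made as inactive proenzymes whose propeptide covers the catalytic zinc. The Timps are small secreted proteins that block the active site, and Adamts proteases cut matrix proteoglycans such as versican. In the kidney the bud grows into mesenchyme by repeated branching, which requires its basement membrane to be opened and rebuilt. A well-known activation route joins several of these genes: Mmp14, anchored in the membrane, binds Timp2, and this complex captures and activates the secreted proenzyme of Mmp2.

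Beta-catenin acts on genes through TCF and LEF proteins, so the promoter letters are shown for Mmp14, Timp2 and Timp3, the genes that held the largest differences below. RefSeq promoters (build GRCm38.p6) were at hand for 7 of the 9 genes. Each run is the 250 bases before the annotated start, 5′ to 3′ on the gene's own strand, and capitals mark GC boxes, the letters GGGCGG or their reverse complement. The windows are chr14:54431348-54431597 on the plus strand for Mmp14, chr11:118355412-118355661 on the minus strand for Timp2 and chr10:86300162-86300411 on the plus strand for Timp3.
Mmp14: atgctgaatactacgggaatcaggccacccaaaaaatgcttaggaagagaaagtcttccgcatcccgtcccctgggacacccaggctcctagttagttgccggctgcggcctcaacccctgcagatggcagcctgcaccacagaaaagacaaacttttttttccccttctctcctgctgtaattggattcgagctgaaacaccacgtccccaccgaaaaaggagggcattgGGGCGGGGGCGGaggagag
Timp2: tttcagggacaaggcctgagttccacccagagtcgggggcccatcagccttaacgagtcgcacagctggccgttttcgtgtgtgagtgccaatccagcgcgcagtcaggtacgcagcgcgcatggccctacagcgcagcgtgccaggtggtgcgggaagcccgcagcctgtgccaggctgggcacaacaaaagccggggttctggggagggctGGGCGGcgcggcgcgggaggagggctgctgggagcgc
Timp3: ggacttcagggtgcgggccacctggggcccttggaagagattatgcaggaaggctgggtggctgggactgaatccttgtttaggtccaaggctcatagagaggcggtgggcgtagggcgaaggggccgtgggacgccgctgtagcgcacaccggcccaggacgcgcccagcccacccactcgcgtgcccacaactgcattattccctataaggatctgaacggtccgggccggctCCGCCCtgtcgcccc
A GC box, the motif of Sp1-type factors, stood in 7 of the 7 promoters, against 32.7% of 32851 mouse promoters of the same length. The 7 windows consisted of G and C at 54.4% to 68%, and the 32851 were not matched to them in this, so the 2 shares are not like for like. The Mmp14 window holds 2, close to the start, and the Timp2 and Timp3 windows hold 1 each. The TCF/LEF core CTTTGA, searched on both strands, was in 0 of the 7 and in 13.8% of all promoters. Its longer form CTTTGAT, which overlaps the core, was in 0 of the 7 and in 3.21% of all. The AP-1 motif TGACTCA was in 0 of the 7 and in 4.46% of all, and the letters TATAAA were in that of Adamts1 alone and in 12.4% of all. These are matches of letters in 1 short window and say nothing of binding here.

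Before the comparison, the arrays and some marker genes were examined. Log2 signals above the filter correlated at 0.973 to 0.977 among knockout arrays, 0.961 to 0.971 among normal arrays and 0.951 to 0.974 between the groups. Markers of the ureteric bud were above the filter for 9 of 9 annotated genes and those of nephron progenitors for 8 of 8. Macrophage markers were above it for 9 of 9 and skeletal muscle markers for 7 of 8, so these counts do not identify the tissue. The brightest Ctnnb1 probe set differed by 0.09 (SE 0.08; limma adjusted p = 0.695) between knockout and normal kidneys. Where its probes lie relative to the deleted exons is not analysed here, so it does not check the labels.

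No metalloproteinase or Timp probe set passed the test for a difference between knockout and normal kidneys. Of the 23 probe sets, 20 lay above the filter on dim signals (a mean signal of 14.7) and were tested, and these covered 8 of the 9 genes, all but Mmp9. By limma with Benjamini-Hochberg adjustment over all 27022 probe sets above the filter, 0 of the 20 passed at 0.05, against 0.581% of all probe sets tested. The smallest adjusted p was 0.389. At an unadjusted p under 0.05 there was 1 of 20, an Mmp14 probe set, against 11.5% of all probe sets. Differences were positive, meaning higher in the knockout, for 10 probe sets and negative for 10, and 48.1% of all probe sets tested were positive. The groups did not overlap for 1 of the 20, against 17.9% of all. Their median over all 23, with no filter, was -0.04 on the log2 scale, against 0.00 over all 45037 probe sets that are not controls. The median size of the difference, sign aside, was 0.18 for the 20 and 0.17 for all probe sets tested. A 95% interval that lies within a 2-fold change either way was obtained for 17 of the 20, and within a 1.5-fold change for 9. In whole kidneys, fewer cells of a type and less RNA per cell cannot be told apart.

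**Figure D1:**
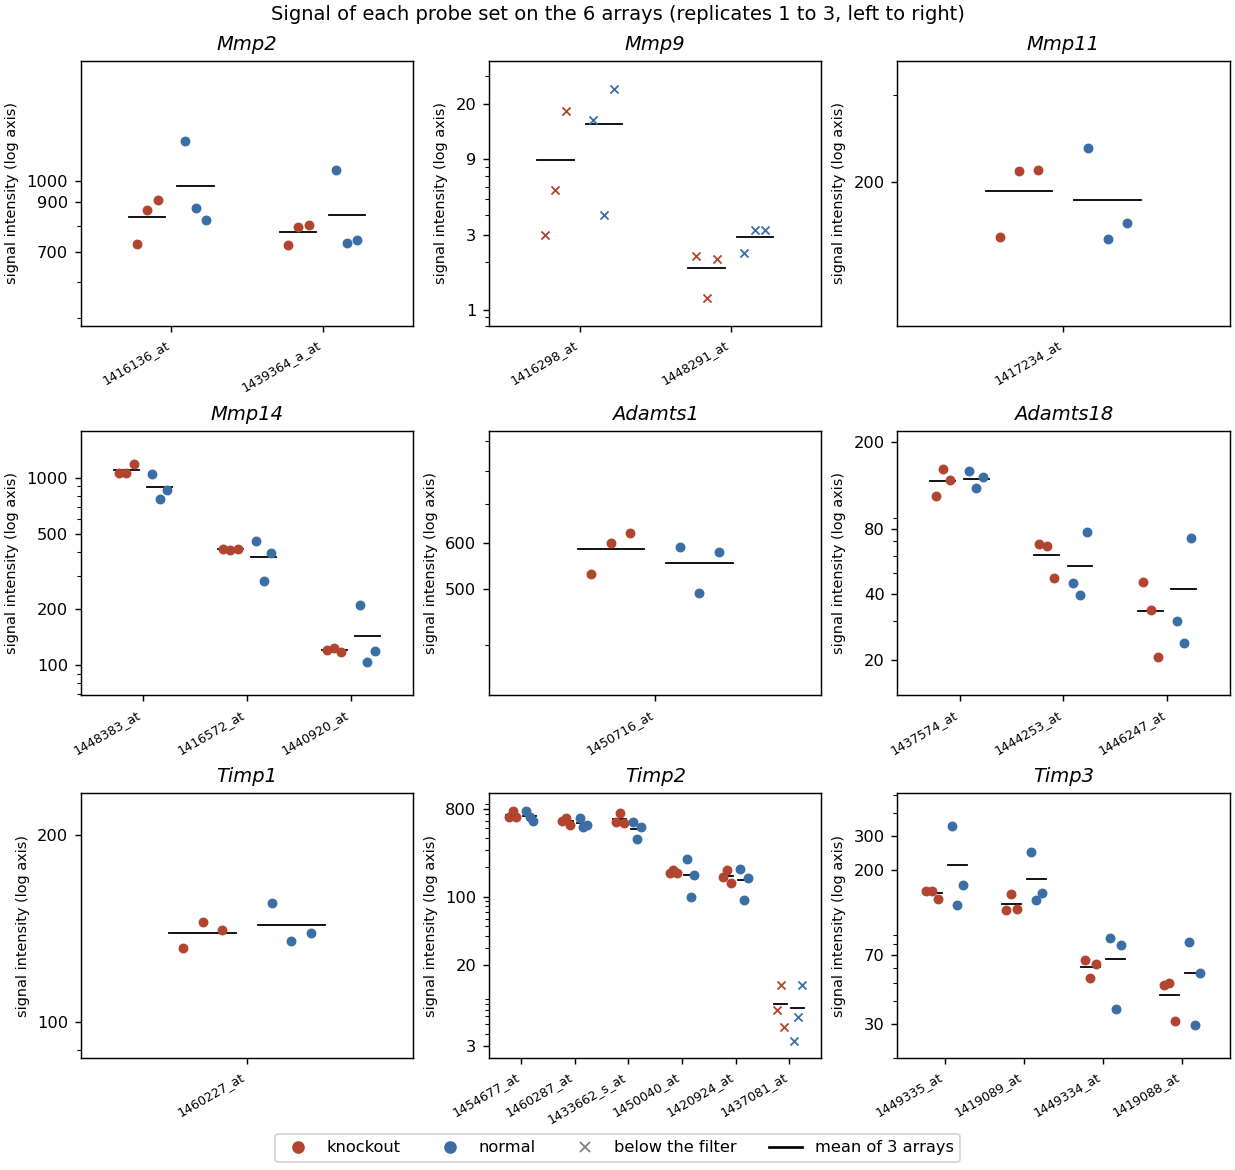
Signal intensity (log axis, arbitrary MAS5 units) of each of the 23 probe sets on the 3 knockout arrays (red) and the 3 normal arrays (blue), with black lines at the group means and crosses for the 3 probe sets below the filter. The 2 groups overlap for every probe set above the filter but Mmp14 1448383_at, where the knockout arrays read 1056.9 to 1188.7 and the normal arrays 766.8 to 1053.6.

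Mmp14, the membrane-anchored protease that starts the activation of Mmp2, came closest to a difference. Its brightest probe set, 1448383_at, read 1061.4, 1056.9 and 1188.7 in knockout replicates 1 to 3, against 1053.6, 766.8 and 860.5 in normal replicates 1 to 3. All knockout arrays lay above all normal arrays, but the closest pair, knockout replicate 2 and normal replicate 1, was nearly level. Among all probe sets tested 9.17% had the knockout arrays wholly higher. The means were 1102 ± 74.8 in knockout and 894 ± 146 in normal kidneys (SD, n = 3 each), a log2 difference of 0.31 (SE 0.12; 95% interval 0.04 to 0.59; limma unadjusted p = 0.0286, adjusted p = 0.389). The exact two-sided permutation p was 0.1, the smallest that 3 arrays against 3 allow.

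The other Mmp14 probe sets did not share this pattern. Probe set 1416572_at read 415.2, 413.9 and 416.2 in knockout kidneys, against 459.3, 282.1 and 397.5 in normal kidneys. The knockout values were almost identical and lay inside the wide normal range, and the log2 difference was 0.16 (SE 0.16; limma adjusted p = 0.737). Probe set 1440920_at read 120.7, 123.9 and 117.8 in knockout kidneys, against 209.1, 103.6 and 118.4 in normal kidneys. It had the opposite sign, at -0.18 (SE 0.24; limma adjusted p = 0.805), and normal replicate 1 stood far above the other 5 arrays. Without normal replicate 1, 1416572_at and 1440920_at stood at 0.31 and 0.12, and without normal replicate 2 at -0.04 and -0.38. With the mean log2 signal of all 3 probe sets the Mmp14 difference was 0.10 (SE 0.16; limma adjusted p = 0.860).

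The genes whose brightest probe set followed Mmp14 1448383_at most closely over the 6 arrays were Neu3 (Pearson r = 0.991), a membrane sialidase, and Isl1 (r = 0.988), a LIM homeobox transcription factor. In all, 32 of 12464 genes had r over 0.95 with it. These values describe 6 arrays. Isl1 read 68.0, 53.4 and 92.1 in knockout kidneys, against 54.1, 17.7 and 23.2 in normal kidneys. Neu3 was dim, at 17.4 to 23.8 in knockout and 9.0 to 19.8 in normal kidneys.

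Mmp2, the gelatinase that cuts type IV collagen and denatured collagens and is activated by Mmp14, was bright on every array. Its probe set 1416136_at read 727.5, 866.5 and 909.6 in knockout kidneys, against 1226.0, 876.1 and 824.4 in normal kidneys. Normal replicate 1 was the highest array, and the other normal arrays lay within the knockout range. The log2 difference was -0.21 (SE 0.15; 95% interval -0.56 to 0.14; limma adjusted p = 0.622), and without normal replicate 1 it was -0.03. The other Mmp2 probe set, 1439364_a_at, read 723.7, 793.7 and 802.4 in knockout kidneys, against 1060.8, 733.3 and 743.2 in normal kidneys. Its difference was -0.11 (SE 0.14; limma adjusted p = 0.799), and 0.07 without normal replicate 1. Both probe sets thus showed the same high array.

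Mmp9, the other gelatinase, typical of macrophages, neutrophils and osteoclasts, lay below the filter in both its probe sets and was not tested. Probe set 1416298_at read 3.0, 5.7 and 18.0 in knockout kidneys, against 15.8, 4.0 and 24.9 in normal kidneys, above the filter level of 14.7 on 3 of the 6 arrays but not on average. Probe set 1448291_at never exceeded 2.2 in knockout or 3.2 in normal kidneys. Values this low scatter widely after MAS5, and no fold change is given. The summed signal of 9 macrophage markers was 951 to 1384 on knockout arrays and 450 to 998 on normal arrays.

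Mmp11, a stromelysin that is unusual in being activated inside the cell by furin and is known from connective tissue near remodelling epithelium, was measured by 1 probe set. It read 154.4, 210.5 and 210.9 in knockout kidneys, against 234.0, 153.5 and 164.8 in normal kidneys. Each group held high and low arrays, and the log2 difference was 0.07 (SE 0.19; 95% interval -0.37 to 0.51; limma adjusted p = 0.912). The sign changed on leaving out each of 3 arrays in turn, as at -0.05 without normal replicate 2.

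Adamts1, a protease of versican and other proteoglycans whose loss in mice disturbs the ureter and renal pelvis, was among the most precisely measured. Its probe set read 530.9, 600.5 and 625.2 in knockout kidneys, against 589.7, 491.3 and 578.4 in normal kidneys. The difference was 0.08 (SE 0.11; limma adjusted p = 0.796), and its 95% interval corresponds to 0.896-fold to 1.25-fold.

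Adamts18, linked in mice to the branching of several epithelial organs, had 3 probe sets with no common direction. The brightest, 1437574_at, read 113.6, 150.9 and 134.6 in knockout kidneys, against 147.3, 122.8 and 138.8 in normal kidneys, a difference of -0.04 (SE 0.15; limma adjusted p = 0.939). The dimmer 1444253_at read 47.3 to 68.4 in knockout and 39.6 to 77.0 in normal kidneys, and differed by 0.22 (SE 0.29). The dimmest, 1446247_at, read 45.8, 34.0 and 20.6 in knockout kidneys, against 30.1, 23.9 and 72.7 in normal kidneys. It had the widest interval of all tested members, -1.27 to 0.80 on the log2 scale, so for this probe set a 2-fold fall lies within the interval.

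Timp1, a secreted inhibitor that blocks Mmp9 well and Mmp14 poorly, was nearly level across the 6 arrays. It read 131.4, 145.0 and 140.8 in knockout kidneys, against 155.5, 135.1 and 139.2 in normal kidneys. The means were 139 ± 6.96 in knockout and 143 ± 10.8 in normal kidneys (SD, n = 3 each). The difference was -0.04 (SE 0.13; limma adjusted p = 0.924), with an interval of 0.795-fold to 1.19-fold.

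Timp2, which both inhibits metalloproteinases and bridges Mmp14 to the Mmp2 proenzyme, had 6 probe sets, 5 of them above the filter. The 5 had positive differences, from 0.05 to 0.34, and none passed. Probe sets of 1 gene share its RNA and are not separate evidence. The probe set with the largest difference, 1433662_s_at, read 581.2, 725.2 and 562.5 in knockout kidneys, against 575.9, 391.4 and 519.6 in normal kidneys. Knockout replicate 3 fell below normal replicate 1, and the difference was 0.34 (SE 0.16; 95% interval -0.02 to 0.69; limma adjusted p = 0.450).

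The remaining Timp2 probe sets were closer to level. The brightest, 1454677_at, read 647.5, 762.3 and 659.7 in knockout kidneys, against 747.1, 654.7 and 602.0 in normal kidneys, and differed by 0.05 (SE 0.11; limma adjusted p = 0.892). Probe set 1460287_at differed by 0.08 (SE 0.11). The dimmer 1450040_at read 174.1, 188.3 and 176.5 in knockout kidneys, against 241.9, 98.8 and 166.5 in normal kidneys. Its knockout values sat in the middle of a normal range of more than 2-fold, and it differed by 0.18 (SE 0.27), as did 1420924_at (SE 0.25). Without normal replicate 2, these 2 probe sets stood at -0.16 and -0.12, so their positive sign rests on that array. Probe set 1437081_at lay below the filter, at 4.7 to 12.6 in knockout and 3.4 to 12.5 in normal kidneys.

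Timp3, the inhibitor that binds the matrix itself and also blocks Adam17 and several Adamts proteases, had 4 probe sets, all with negative differences and none past the test. The brightest, 1449335_at, read 154.6, 154.4 and 139.7 in knockout kidneys, against 339.2, 129.6 and 165.7 in normal kidneys. Normal replicate 1 was more than 2-fold above every knockout array while normal replicate 2 lay below all of them. The difference was -0.38 (SE 0.30; 95% interval -1.06 to 0.31; limma adjusted p = 0.652), and 0.03 without normal replicate 1. Probe set 1419089_at read 122.4, 148.2 and 122.8 in knockout kidneys, against 248.7, 138.0 and 150.0 in normal kidneys. It differed by -0.40 (SE 0.22; 95% interval -0.90 to 0.10; limma adjusted p = 0.519), and by -0.14 without normal replicate 1. The dimmer 1449334_at and 1419088_at differed by -0.06 (SE 0.32) and -0.29 (SE 0.38). The 95% interval of 1419088_at was -1.14 to 0.56, so for it and for 1449335_at a 2-fold fall lies within the interval.

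**Figure D2:**
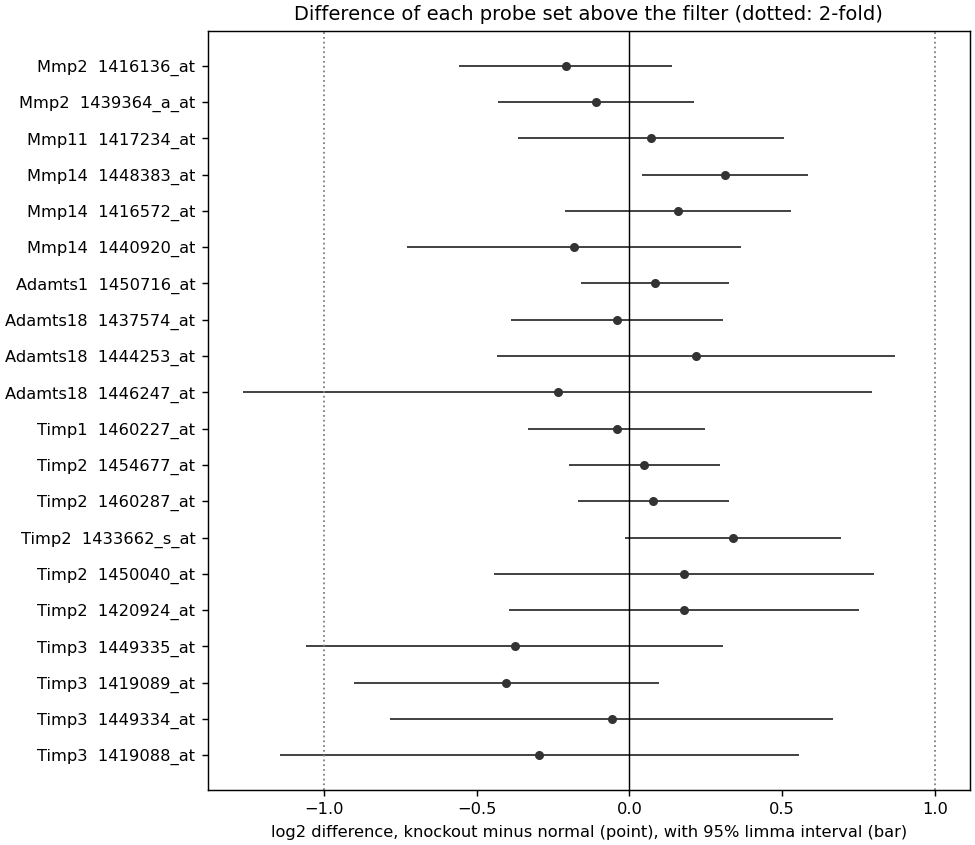
Log2 difference, knockout minus normal (points), with its 95% limma interval (bars), for the 20 probe sets above the filter, with dotted lines at a 2-fold change. Only the interval of Mmp14 1448383_at, 0.04 to 0.59, lies wholly on 1 side of 0, and its adjusted p was 0.389.

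Side by side, the genes of the Mmp2 activation route stood as follows. Averaged over their probe sets, Mmp14 differed by 0.10 (SE 0.16), Timp2 by 0.18 (SE 0.17) and Mmp2 by -0.16 (SE 0.15), with limma adjusted p of 0.860, 0.726 and 0.711. The Timp2 average took in its probe set below the filter, with the same weight as the others. Timp3 stood at -0.28 (SE 0.28; limma adjusted p = 0.734). None of these averaged values differed beyond the spread between arrays.

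In the deposited values the members varied more among the normal arrays than among the knockout arrays, a pattern that was weaker after median scaling. Over the 20 probe sets above the filter, the median range from lowest to highest array was 0.26 in knockout and 0.66 in normal kidneys on the log2 scale. The same median over all 27022 probe sets was 0.31 in knockout and 0.41 in normal kidneys. The normal range was the wider one for 19 of the 20 member probe sets, against 62.6% of all probe sets. This count was made after the values were seen, and probe sets of 1 gene are not independent.

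The wide normal range had the same arrays at its ends. Normal replicate 1 was the highest of the 6 arrays for 12 of the 20 probe sets, from 6 of the 8 genes, against 27.5% of all probe sets. Normal replicate 2 was the lowest for 13 of the 20, also from 6 genes, against 22.2% of all. Set against the average normal array, the median member stood at -0.05, 0.14 and -0.02 in knockout replicates 1 to 3, against 0.33, -0.32 and 0.00 in normal replicates 1 to 3. Over all probe sets above the filter the same median was 0.04, -0.04 and 0.02 in normal replicates 1 to 3. The median signal of whole arrays was highest on normal replicate 1, at 32.1, and lowest on normal replicate 2, at 24.9. It was 31.5, 30.5 and 25.1 in knockout replicates 1 to 3 and 30.7 in normal replicate 3. Between its ends the array median thus did not follow the order of the median member. The spread depended on the scaling. With each array scaled to a common median, the median member stood at -0.16, 0.07 and 0.19 in knockout replicates 1 to 3, against 0.18, -0.10 and -0.08 in normal replicates 1 to 3. Normal replicate 1 was then the highest array for 8 of the 20 and normal replicate 2 the lowest for 6, and the normal range was wider for 12. With quantile normalization these counts were 12, 12 and 18, close to those of the deposited values.

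**Figure D3:**
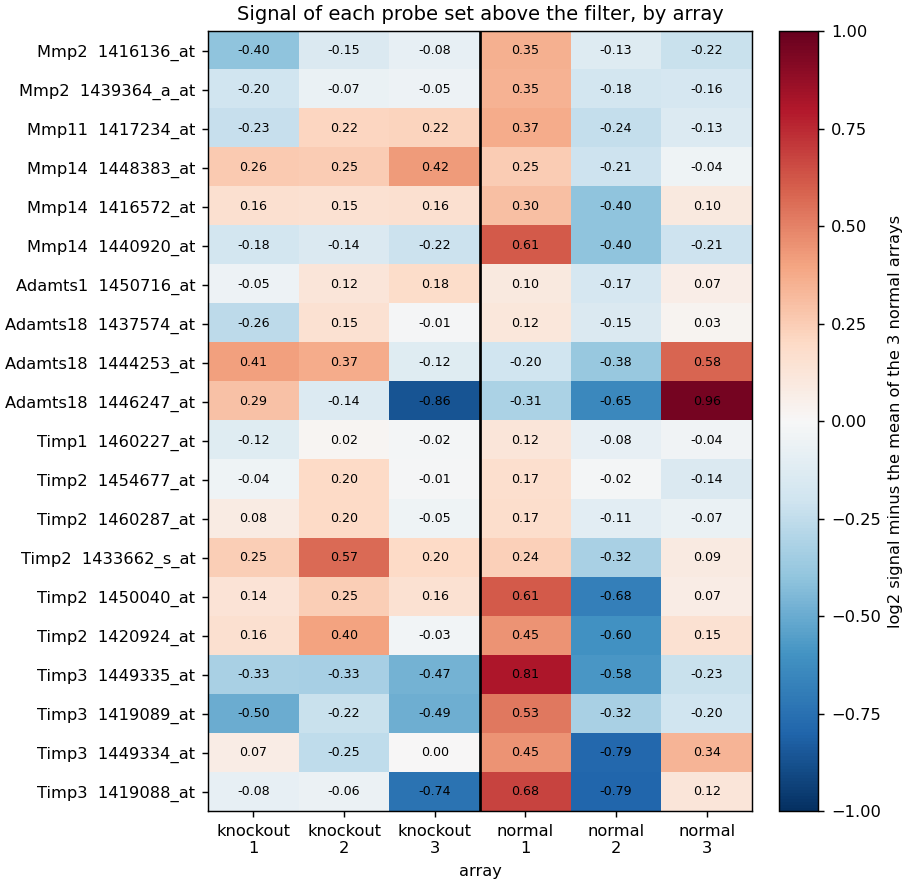
Log2 signal of each of the 20 probe sets above the filter (rows) on each array (columns, knockout left of normal), as the difference from the average of the 3 normal arrays, with red for higher and blue for lower signal. Normal replicate 1 is mostly red and normal replicate 2 mostly blue, with medians of 0.33 and -0.32, and the knockout arrays lie between them at -0.05, 0.14 and -0.02.

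Sums of marker genes were set beside this order of the arrays, and the lists did not share 1 pattern. The sum of 8 endothelial markers was 1492, 1615 and 1550 in knockout replicates 1 to 3, against 2118, 1342 and 1541 in normal replicates 1 to 3. Normal replicate 1 was thus the highest array and normal replicate 2 the lowest, as for the median member. Of the 8 genes, 6 peaked on normal replicate 1 and 4 were lowest on normal replicate 2. The sum of 7 neural crest and chromaffin markers had the same arrays at its ends, at 1050, 490 and 220 in knockout kidneys, against 1333, 176 and 351 in normal kidneys. Of these 7 genes, 6 peaked on normal replicate 1 but only 2 were lowest on normal replicate 2. The sum of 8 renal stroma markers was 11717, 14257 and 12608 in knockout kidneys, against 14642, 11422 and 12401 in normal kidneys, but 3 of its 8 genes peaked on normal replicate 1. Without Col3a1, a fibrillar collagen gene and the brightest of them, the other 7 summed highest on knockout replicate 2, at 9207, and lowest on knockout replicate 1, at 7597.

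Other lists ran differently. The sum of 9 macrophage markers was 951, 1384 and 1027 in knockout kidneys, against 998, 450 and 807 in normal kidneys, so normal replicate 2 was the lowest array while the highest was knockout replicate 2. All 9 genes were lowest on normal replicate 2, and 1 peaked on normal replicate 1. Nephron progenitor markers were highest on normal replicate 2, at 5546, against 4785 on normal replicate 1. The ureteric bud sum was 4413, 2808 and 3737 in knockout kidneys, against 3517, 3956 and 3227 in normal kidneys. Both its highest and its lowest array were thus knockout arrays. Its brightest gene, Calb1, read 2301.5, 1203.8 and 1940.3 in knockout kidneys, against 1345.3, 1913.0 and 1468.7 in normal kidneys. The sum of 7 skeletal muscle markers was 616, 3645 and 171 in knockout kidneys, against 168, 173 and 222 in normal kidneys, so knockout replicate 2 held most of it. Without knockout replicate 2, the difference of Mmp14 1448383_at and that of Timp2 1433662_s_at were 0.34 and 0.22. Knockout replicate 1, with a muscle sum of 616, stayed in, and the part of muscle in these differences was not tested. The erythroid sum was 11620 to 14878 on knockout arrays and 10126 to 12450 on normal arrays. Most of it was Hbb-y, at 9672.7 to 10465.3 in knockout and 9243.8 to 10067.9 in normal kidneys. By sign, 5 of the 6 erythroid genes above the filter were higher in the knockout and 1 was lower, with a median log2 difference of 0.55 and 0 past the test. Markers of cartilage and osteoclasts summed to 789 to 1106 in knockout and 794 to 902 in normal kidneys. The part of any of these cells in the spread of the proteases and inhibitors was not tested.

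The rest of the proteolytic system was read through 88 other genes in 9 lists. Of these, 77 were annotated with 1 symbol and 52 lay above the filter. By limma with Benjamini-Hochberg adjustment 0 of the 52 passed, against 0.602% of all 12464 genes tested by their brightest probe set. At an unadjusted p under 0.05 there were 7 of the 52, 4 higher and 3 lower in the knockout, beside 11.7% of all genes. Among the same 52, the groups did not overlap for Adamts12, Reck, Adam8, Bsg, Pcolce, Pcolce2, Plat, Col4a1 and Col18a1. Of all probe sets tested, 17.9% had groups that did not overlap.

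Among other matrix metalloproteinases, 4 of 14 annotated genes lay above the filter and 0 passed. The collagenases and stromelysins Mmp8, Mmp13, Mmp3 and Mmp10, the matrilysin Mmp7 and the macrophage elastase Mmp12 were all below it. Mmp17, a membrane-anchored member, read 20.7, 10.5 and 30.2 in knockout kidneys, against 48.0, 25.6 and 34.3 in normal kidneys, a difference of -0.89 (SE 0.43; limma adjusted p = 0.466). Mmp16, another membrane-type member that can activate Mmp2, differed by 0.23 (SE 0.17). Of 11 measured Adamts genes, 5 were higher and 6 lower by sign. Adamts12 read 214.9, 279.3 and 224.0 in knockout kidneys, against 195.7, 184.6 and 190.0 in normal kidneys, groups that did not overlap (0.32, SE 0.13; limma adjusted p = 0.405). Adamts5, a versican and aggrecan protease, differed by 0.34 (SE 0.20). The Adamts-like proteins, which lack the protease domain, had 4 measured genes, of which Adamtsl1 stood at 0.25 (SE 0.24) and Adamtsl2 at -0.38 (SE 0.38).

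Among the other inhibitors, Reck, a membrane-anchored protein that restrains several matrix metalloproteinases including Mmp14, read 542.7, 633.5 and 592.1 in knockout kidneys, against 508.4, 484.6 and 515.1 in normal kidneys. The groups did not overlap, and the difference was 0.23 (SE 0.09; limma adjusted p = 0.409). The testican Spock2 differed by -0.50 (SE 0.24), with normal replicates 1 and 2 at 780.2 and 688.3 above all other arrays. Timp4 lay below the filter. Of 8 Adam proteases, Adam8 differed by -0.68 (SE 0.28; limma adjusted p = 0.410) at a dim signal, and Adam15 by -0.29 (SE 0.19).

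Several helpers of proteolysis had small differences. Bsg (basigin), an inducer of metalloproteinase synthesis, read 1927.9, 1875.7 and 1943.1 in knockout kidneys, against 1690.5, 1668.1 and 1646.4 in normal kidneys, a difference of 0.20 (SE 0.07; limma adjusted p = 0.338). Lrp1, an endocytic receptor that clears proteases and their inhibitors, stood at -0.33 (SE 0.21). Pcolce, which enhances the trimming of procollagen by astacin proteases, read 1073.9, 1334.9 and 1167.8 in knockout kidneys, against 956.6, 920.8 and 1007.8 in normal kidneys (0.31, SE 0.10; limma adjusted p = 0.304). Its relative Pcolce2 went the other way at a dim signal, by -0.63 (SE 0.26). The plasminogen activator Plat differed by 0.19 (SE 0.09), and the urokinase receptor Plaur by 0.17 (SE 0.30).

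Among these 9 lists, the substrates had the median farthest from 0, at -0.25 by brightest probe sets, against -0.01 over all probe sets tested. Of 8 measured substrate genes, 7 were lower by sign and 0 passed the test. Of all probe sets tested, 48.1% were higher by sign. Col4a1, a type IV collagen chain of basement membranes and a substrate of both gelatinases, read 1580.1, 1566.2 and 1514.5 in knockout kidneys, against 2587.1, 2158.4 and 1652.3 in normal kidneys. The groups did not overlap, and the difference was -0.43 (SE 0.14; limma adjusted p = 0.322). Fibronectin (Fn1) differed by -0.23 (SE 0.10). The summed substrate signal was 7519 to 9248 on knockout arrays and 9138 to 11866 on normal arrays, with normal replicate 1 the highest here too.

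**Figure D4:**
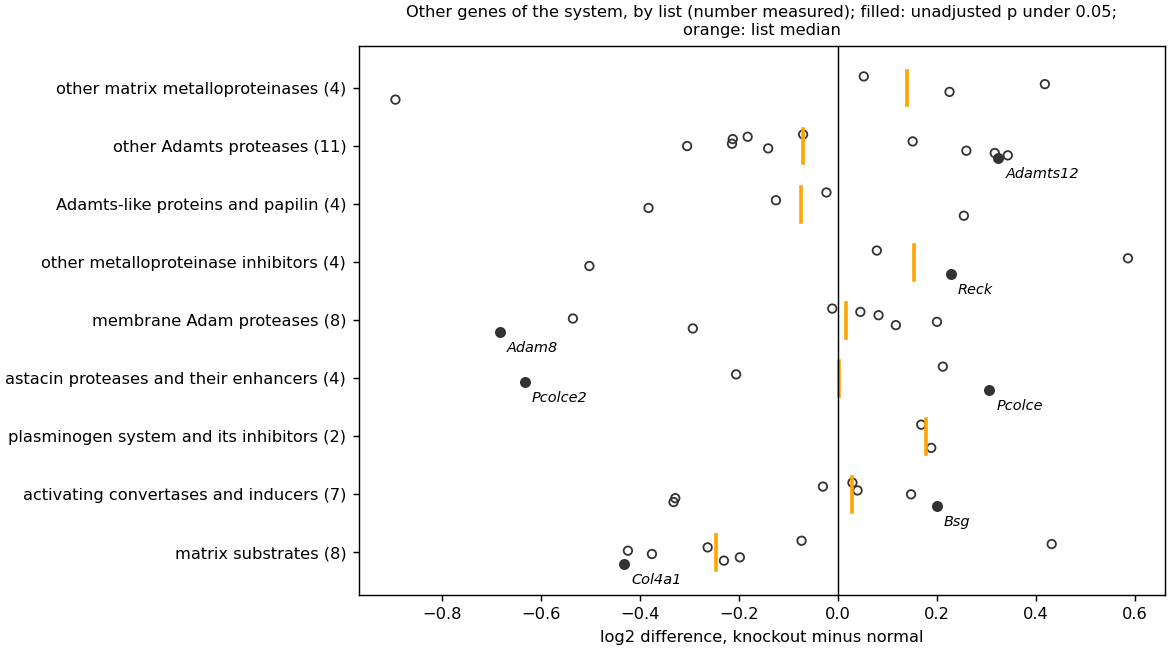
Log2 difference, knockout minus normal, of the 52 other genes of the proteolytic system above the filter, grouped by list, with the list medians in orange and filled points for the 7 genes at an unadjusted limma p under 0.05. None passed after adjustment, and the substrates have the lowest median, at -0.25.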

How the data were processed

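Whole embryonic kidneys were measured on 6 single-colour arrays, 3 knockout and 3 normal, grouped by sample title. The authors deposited 1 linear signal intensity per probe set, made with MAS5 per the submitters' processing notes. Neither its version nor its detection calls were at hand. The trimmed mean intensity was 150 on each array (2nd to 98th percentile). Array medians spanned 0.37 on the log2 scale, so no further scaling was applied. Before log2, 1.7 (the 10th percentile of positive values) replaced the 15 zeros. The 64 control probe sets were left out, and probe sets with a mean log2 signal above the 40th percentile were kept. Because MAS5 subtracts mismatch signal, dim values scatter widely.

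Of the 45037 probe sets that are not controls, 34945 had 1 symbol, 932 several and 9160 none, from the platform annotation updated through the GRCm38.p6 gene table. The groups were tested in R 4.3.3 by limma 3.58.1 (intensity trend) and Benjamini-Hochberg adjustment at 0.05. Values after a difference are standard errors. A gene with several probe sets is represented by its brightest in the lists. Having 3 arrays per group limits the precision. Data were simulated for 27022 probe sets with the real means and Gaussian noise at the moderated spreads of limma. Of those changed on purpose, 17.9% of 67 at 1.5-fold, 50.7% of 67 at 2-fold and 90.9% of 66 at 4-fold were recovered. Among the probe sets left unchanged there were 11 false calls.

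The members and lists were chosen with earlier results of these data known. Named genes are all member probe sets, from each list the 2 with the smallest p (none passed), Ctnnb1, and for the Mmp14 probe set under an unadjusted p of 0.05 the 2 genes most like it; further list members mentioned were chosen after their values were seen. Alternatives were other scalings, filters, low-value treatments, variance models, array weights, a replicate block, gene means, a threshold of 0.1 and leaving out each array. The rescaled spread among arrays and the stroma sum without Col3a1 were chosen after seeing the data. Same-numbered knockout and normal arrays deviated together with r of 0.08, -0.11 and -0.20, so the numbers were not treated as pairs. No scan date or batch is given in the labels.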

Additional observations from a re-analysis of the deposited data

How the results depend on the processing

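The count of member probe sets past the threshold was 0 under every alternative run, and so was that of the other protease and inhibitor genes. The lowest adjusted p of any member, 0.112, was that of Mmp14 1448383_at without normal replicate 1 (0.44). The Mmp14 1448383_at difference was positive throughout, from 0.21 to 0.44 with 1 array left out, with an unadjusted p under 0.05 in 11 of 16 alternatives. The median over all member probe sets was -0.12 without normal replicate 2 and 0.12 without normal replicate 1, the ends of its range. The 157 calls over all probe sets were 447 with median scaling, 41 without the intensity trend, 253 at a threshold of 0.1, 47 with gene means in place of probe sets, 109 with the replicate block, and from 47 to 149 with 1 array left out. Of 318 member differences recomputed, 298 kept their sign and the other 20 changed it, each with 1 array left out. The ranges of those probe sets with 1 array left out were Mmp14 1416572_at -0.042 to 0.31, Mmp11 1417234_at -0.048 to 0.26, Timp3 1419088_at -0.69 to 0.043, Timp2 1420924_at -0.12 to 0.40, Adamts18 1437574_at -0.14 to 0.068, Mmp2 1439364_a_at -0.20 to 0.065, Mmp14 1440920_at -0.38 to 0.12, Adamts18 1446247_at -0.56 to 0.24, Timp3 1449334_at -0.45 to 0.17, Timp3 1449335_at -0.67 to 0.028, Timp2 1450040_at -0.16 to 0.49, Timp2 1454677_at -0.026 to 0.13 and Timp1 1460227_at -0.082 to 0.019. The cause was not tested. Dim signal limits Mmp9, the dimmest Adamts18 and Timp2 probe sets and any statement on their size.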
